A study of Homo sapiens with 6 samples.

Results

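Aminoacyl-tRNA synthetases are the enzymes that join each amino acid to its tRNA. The 38 genes described here are 19 for cytosolic synthetases, 16 for mitochondrial synthetases and 3 for scaffold proteins of the cytosolic multi-synthetase complex. They were chosen by gene name from the 25702 genes counted in each library, and all 38 were matched through their NCBI Gene identifiers. RNA was sequenced from K562, an established line of leukaemic cells with erythroid features, after transient transfection with a pCMV-HA expression plasmid. All groups received that plasmid, which carries the cytomegalovirus promoter. It was empty (EV), carried MXD3, or carried STIM1::MXD3, a fusion gene found in paediatric acute myeloid leukaemia. There were 2 libraries per group. According to the study, each came from its own transfection. The RNA came from whole cultures, so cells that took up no plasmid may be mixed with cells that did, and fewer expressing cells cannot be told apart from less RNA per cell.

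Each synthetase activates its amino acid with ATP and transfers it to the matching tRNA, which then serves the ribosome. The cytosol and the mitochondrion use separate sets of enzymes, encoded by different nuclear genes for most amino acids. KARS1 and GARS1 serve both compartments, and EPRS1 charges tRNAs with glutamate and with proline in 1 protein. Part of the cytosolic enzymes sit in the multi-synthetase complex, held together by AIMP1, AIMP2 and EEF1E1. When uncharged tRNA accumulates, the kinase GCN2 is activated and ATF4 is translated, and many cytosolic synthetase genes are known targets of ATF4. MXD3 is a repressor of the MYC, MAX and MXD network, which binds the E-box. The fusion keeps the DNA-binding part of MXD3 and lacks its amino-terminal repression domain. The comparisons asked whether either construct changed the expression of the charging enzymes, and whether the constructs differed.

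Total counts were between 53048343 and 63835779 per library, and 17375 to 17836 genes were detected. MXD3 stood at 9.26 and 11.8 CPM (counts scaled to a common library size) in EV, at 2508 and 2182 CPM in the MXD3 libraries and at 1967 and 1854 CPM in the STIM1::MXD3 libraries. STIM1 stood at 160.8 to 203.2 CPM in the EV and MXD3 libraries and at 469.4 and 454.4 CPM in the STIM1::MXD3 libraries. Both genes together matched all 6 labels. All 8 erythroid genes used as K562 markers were at or above 1 CPM in every library, with a summed level of 5857 to 8073 CPM. The 8 markers of other blood or tissue cells summed to 82.4 to 103.9 CPM, nearly all of it EPCAM, while MS4A1 was at 0 in every library and MPO reached at most 0.039 CPM. The 38 genes together held 0.882% to 0.995% of all counts.

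VARS1 and VARS2, for the cytosolic and the mitochondrial valyl-tRNA synthetase, were almost absent from the count tables. VARS1 (GRCh37 chromosome 6, 31745295 to 31763529) lay between 0.780 and 1.24 CPM, and VARS2 (chromosome 6, 30881982 to 30894236) between 0 and 0.117 CPM. VARS2 did not pass the filter on low counts, so 37 of the 38 genes were tested. Neighbouring genes were also low. In a window from 28.5 to 33.5 Mb of chromosome 6, chosen after the values were seen, 147 of 161 protein-coding genes (91.3%) had a mean below 1 CPM. Elsewhere on chromosome 6 this held for 330 of 811 (40.7%), and in the rest of the genome for 7391 of 18579 (39.8%). Widely expressed genes in the window were also near 0, such as TUBB (0.166 to 0.395 CPM) and RPS18 (0.480 to 1.35 CPM). The values of VARS1 and VARS2 are therefore given without being read as expression, and why the window is low was not tested.

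**Figure D1:**
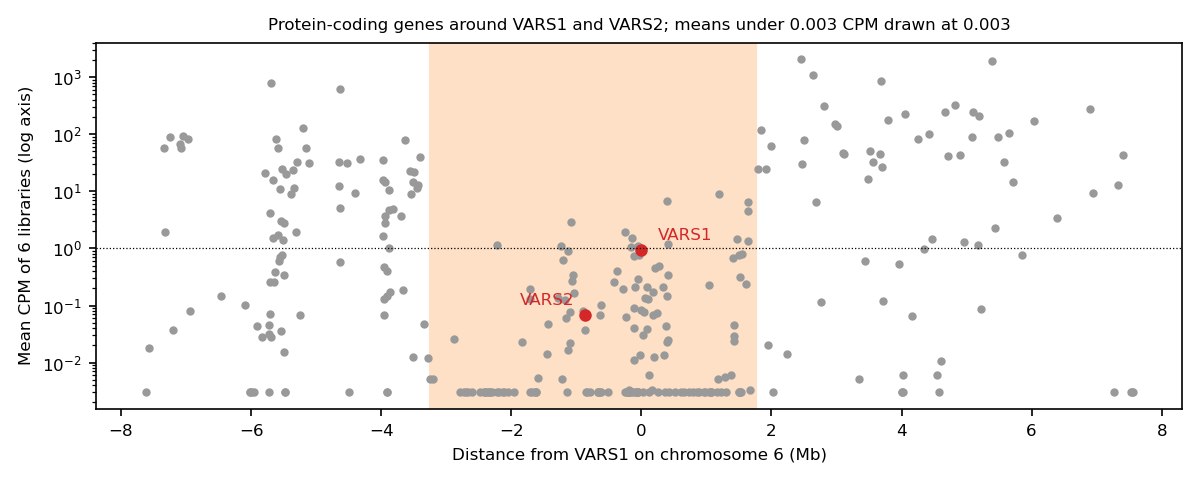
Mean CPM over 6 libraries (log axis) of protein-coding genes within 8 Mb of VARS1, by distance in Mb from the start of VARS1. Each grey point is 1 gene, VARS1 and VARS2 are in red, the dotted line marks 1 CPM, and the shaded window, chosen after the values were seen, holds 161 genes of which 147 lie below the line.

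Promoter sequences of the family were searched for the motifs of the factors named above. RefSeq promoter windows (GRCh38.p14) were at hand for 33 of the 38 genes, in 45 windows. LARS1, VARS1, YARS1, AARS2 and VARS2 were not among them. The 250 bases before each start site were searched on both strands for the E-box CACGTG, the site of MYC, MAX and MXD proteins, and for TGATGNAA, the core of the element bound by C/EBP and ATF proteins. The E-box was present in 4 of 45 windows (8.89%), against 2228 of 35116 promoter windows in the table (6.34%). In the stretches that follow, the E-box is in capitals, and each is written along the gene's own strand:
EARS2 (chr16:23557351-23557376, minus strand): agggagaagccCACGTGtgctattcc
MARS2 (chr2:197705347-197705368, plus strand): tgcgcctctcaCACGTGctgtc
AIMP2 (chr7:6009479-6009506, plus strand): cgggcgctggcCACGTGcaggtaggagc
IARS1 (chr9:92293867-92293894, minus strand): ggttcgttttcCACGTGgaggcgcaaaa
The E-box of EARS2 ended 9 bases before the start site, that of MARS2 5, that of AIMP2 69 and that of IARS1 180 bases before it.

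The core of the C/EBP-ATF element was also present in 4 of the 45 windows (8.89%), against 1104 of 35116 (3.14%). It is shown in capitals because many cytosolic synthetase genes are known targets of ATF4. YARS2 is a mitochondrial one. The core reads on the opposite strand in AARS1, GARS1 and IARS1:
AARS1 (chr16:70289675-70289704, minus strand): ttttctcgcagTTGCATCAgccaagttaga
GARS1 (chr7:30594834-30594863, plus strand): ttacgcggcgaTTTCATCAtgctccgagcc
IARS1 (chr9:92293698-92293721, minus strand): ttttcagcgcgTTGCATCAcctcc
YARS2 (chr12:32756076-32756105, minus strand): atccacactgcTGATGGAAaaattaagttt
IARS1 held both motifs. A match is a description of letters, and a promoter without one may still be bound.

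HARS1 and HARS2, for the cytosolic and the mitochondrial histidyl-tRNA synthetase, are transcribed away from each other. Their RefSeq start sites are separated by 84 bases (GRCh38.p14 chr5:140691371-140691454), of which 59.5% are G or C. The whole stretch is shown on the plus strand, since it is promoter to both genes:
HARS1-HARS2: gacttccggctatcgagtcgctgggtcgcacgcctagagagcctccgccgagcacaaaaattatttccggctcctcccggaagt
In the GRCh37 annotation the gene bodies overlap at this end (HARS1 140052620 to 140071122, HARS2 140071015 to 140078890), so reads there could not be assigned with certainty unless strand was used.

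To compare levels between genes, CPM were divided by the length in kilobases of the gene's canonical GENCODE transcript. In EV, WARS1, the tryptophanyl-tRNA synthetase, had the highest level at 323.3 ± 18.8 CPM per kb (SD, n = 2 for every EV level). SARS1 for serine followed at 315.8 ± 6.54, AARS1 for alanine at 307.5 ± 6.05 and GARS1 for glycine at 301.8 ± 17.2 CPM per kb. The EV libraries of each of these genes overlapped with those of the next. YARS1 for tyrosine stood apart at 255.2 ± 4.55 CPM per kb, and TARS1, MARS1, EPRS1, KARS1, IARS1, QARS1 and NARS1 lay between 184.5 and 121.1 CPM per kb. FARSA, LARS1, CARS1 and RARS1 lay between 98.2 and 58.7 CPM per kb. Over the whole order of 38 genes, 18 of the 37 neighbouring pairs overlapped between their EV libraries and 19 did not, so the rank of a single gene is often not resolved.

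HARS1 (30.1 ± 4.77 CPM per kb) and FARSB (10.96 ± 0.60 CPM per kb) were lowest among the cytosolic enzymes other than VARS1. FARSA and FARSB encode the catalytic and the other subunit of the phenylalanyl-tRNA synthetase. Their per-length levels depend on the transcript chosen, because the canonical transcript of FARSB has 6761 bases and that of FARSA 1811. In CPM, without length, FARSA stood at 167.7 and 188.0 and FARSB at 71.2 and 76.9 in the EV libraries. The 7 enzymes of the multi-synthetase complex spanned 58.7 to 174.7 CPM per kb with a median of 144.7, and the 11 free cytosolic enzymes other than VARS1 spanned 10.96 to 323.3 with a median of 184.5. The enzymes of the complex thus differed among themselves by 2.98 times and the free ones by 29.5 times, or by 10.7 times without FARSB.

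Of the scaffold genes, EEF1E1 (AIMP3) had 102.8 ± 0.58 CPM per kb in EV, while AIMP1 had 24.04 ± 0.43 and AIMP2 20.4 ± 0.73 CPM per kb. IARS2, for isoleucine, was the highest mitochondrial enzyme at 59.3 ± 2.15 CPM per kb. TARS2 and SARS2 followed at 20.9 ± 0.44 and 20.2 ± 4.92 CPM per kb, and 8 genes from WARS2 to LARS2 were packed between 14.1 and 10.95 CPM per kb. AARS2 had 8.34 ± 1.49 CPM per kb. EARS2 for glutamate, PARS2 for proline and MARS2 for methionine were lowest, at 4.71 ± 0.11, 4.67 ± 0.19 and 3.86 ± 0.41 CPM per kb, of which EARS2 and PARS2 overlapped.

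The cytosolic set stood far above the mitochondrial one. Without VARS1 and VARS2, its median was 149.1 CPM per kb in EV against 13.0 for the mitochondrial set. The ratio of the medians was between 11.05 and 12.4 in the 6 libraries, and 15 or 16 of the 18 cytosolic genes lay above the highest mitochondrial gene in each library. Among the 12 amino acids with 1 gene for each compartment, the cytosolic gene was always the higher one in EV. The ratio was smallest for isoleucine (2.44), where IARS2 is high, and for histidine (2.47), where HARS1 is low. It was 36.9 for alanine and reached 45.3 for methionine (MARS1 against MARS2), with a median of 9.19. These ratios depend on the transcripts chosen, such as 3437 bases for AARS1 and 4798 for AARS2.

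**Figure D2:**
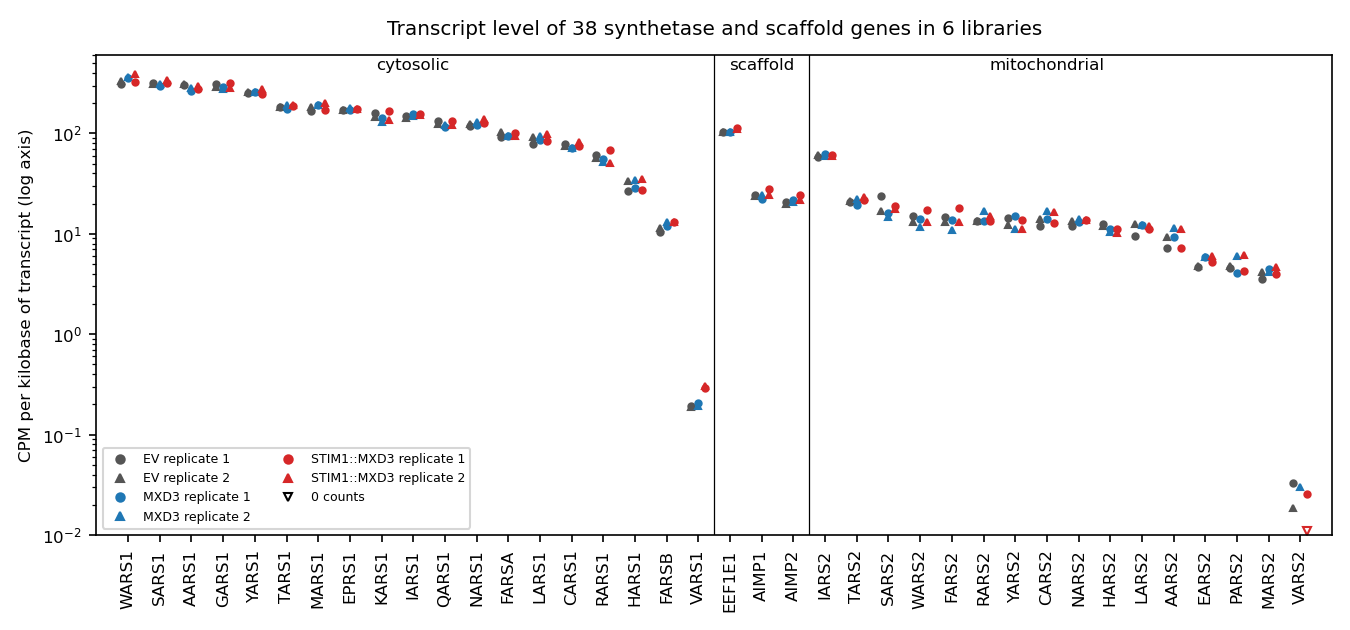
CPM per kilobase of canonical transcript (log axis) of the 38 genes in the 6 libraries, ordered by the EV level within each class. Colours mark the groups, circles and triangles replicates 1 and 2. The 3 groups lie on top of each other for most genes, with cytosolic genes near 149.1 and mitochondrial genes near 13.0 at the EV median, and VARS1 and VARS2 far below.

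The levels were steady across the 6 libraries. EPRS1 had between 823.2 and 863.5 CPM, so its highest library exceeded its lowest by 1.05 times. This ratio was 1.08 for IARS2 and 1.11 for TARS1. It was largest for FARS2 (1.63), SARS2 (1.62) and AARS2 (1.57), all mitochondrial, leaving aside VARS1 and VARS2. The summed cytosolic level was 8279 and 8400 CPM in EV, 8238 and 8406 CPM with MXD3, and 8414 and 8791 CPM with STIM1::MXD3. Both fusion libraries had the highest sums, with replicate 1 barely above MXD3 replicate 2, and the sums were not tested.

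Against EV, MXD3 changed no gene of the family past the threshold. At an adjusted p under 0.05 (edgeR quasi-likelihood test) 0 of 37 were called, against 1 of all 15431 genes (0.00648%), MXD3 itself. No member had an unadjusted p under 0.05, which 1.86% of all genes had. The point estimates ran from -0.40 for SARS2 to 0.31 for EARS2 on the log2 scale, and 32 of the 36 genes other than VARS1 lay within 0.2 of 0. The 95% intervals of this fit, which has no block, had a median distance of 0.32 from estimate to bound. Those of these 36 genes lay between -0.86 and 0.86, so a change smaller than a gene's own interval was not detectable. DESeq2 also called none of the family, against 3 of all 15431 genes. With the replicate number as a block it again called none, against 243 of all genes.

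EARS2, the mitochondrial glutamyl-tRNA synthetase (GRCh37 chromosome 16, 23532075 to 23569052), had the smallest p in this comparison. It stood at 24.1 and 24.9 CPM in EV and at 30.6 and 30.2 CPM with MXD3, so the groups did not overlap. The log2 fold change was 0.31 ± 0.14 (SE; adjusted p = 0.9995, edgeR). It varied little when single libraries were left out, from 0.30 to 0.33. The promoter of EARS2 carries 1 of the 4 E-boxes shown above.

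SARS2, the mitochondrial seryl-tRNA synthetase (chromosome 19, 39405906 to 39421403), had the lowest estimate. It stood at 45.7 and 32.3 CPM in EV and at 31.1 and 28.1 CPM with MXD3. The log2 fold change was -0.40 ± 0.19, but EV replicate 1 decided its size: without that library it was -0.12. The groups did not overlap, although EV replicate 2 lay closer to the MXD3 libraries than to its own partner.

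FARSB (chromosome 2, 223431618 to 223520811) had 71.2 and 76.9 CPM in EV and 80.8 and 89.5 CPM with MXD3, a log2 fold change of 0.20 ± 0.12, without overlap. FARSA, the other subunit, had 167.7 and 188.0 CPM in EV and 169.7 and 171.0 CPM with MXD3, so its groups overlapped. AARS1 (chromosome 16, 70285886 to 70323610) had 1042 and 1072 CPM in EV and 900.4 and 977.1 CPM with MXD3, a log2 fold change of -0.18 ± 0.12. Its mitochondrial counterpart AARS2 (chromosome 6, 44266468 to 44281084) had 34.9 and 45.0 CPM in EV and 44.9 and 54.5 CPM with MXD3. The AARS2 groups overlapped, with a log2 fold change of 0.31 ± 0.23. AARS1 exceeded AARS2 per kilobase by 41.6 and 33.2 times in EV and by 28.0 and 25.04 times with MXD3.

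By class, the cytosolic enzymes had a median log2 fold change of 0.028 with MXD3, with 10 of 19 higher, but of 0.0045, with 9 of 18 higher, once VARS1 was left out. The mitochondrial enzymes had a median of 0.082, with 9 of 15 higher. Over all genes tested the median was 0.0011 and 50.2% were higher. The cytosolic median changed sign, to -0.043, with offsets for GC content and transcript length, under which 7 of 19 were higher and the median of all genes was -0.043 as well. It was also below 0 without EV replicate 1 (-0.015) and without MXD3 replicate 2 (-0.051). Without EV replicate 1 the mitochondrial median was 0.013, and without MXD3 replicate 2 it was 0.031. The scaffold genes lay between -0.06 and 0.05.

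Synthetases fall into 2 structural classes with unrelated catalytic folds. The 8 cytosolic class I genes other than VARS1 had a median log2 fold change of 0.055 with MXD3 (5 of 8 higher), and the 9 class II genes, counted without EPRS1, which holds an enzyme of each class, one of -0.066 (3 of 9 higher). With GC and length offsets these were -0.0022 (4 of 8 higher) and -0.074 (2 of 9 higher). No member of either class was called, and the difference between the classes was not tested.

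**Figure D3:**
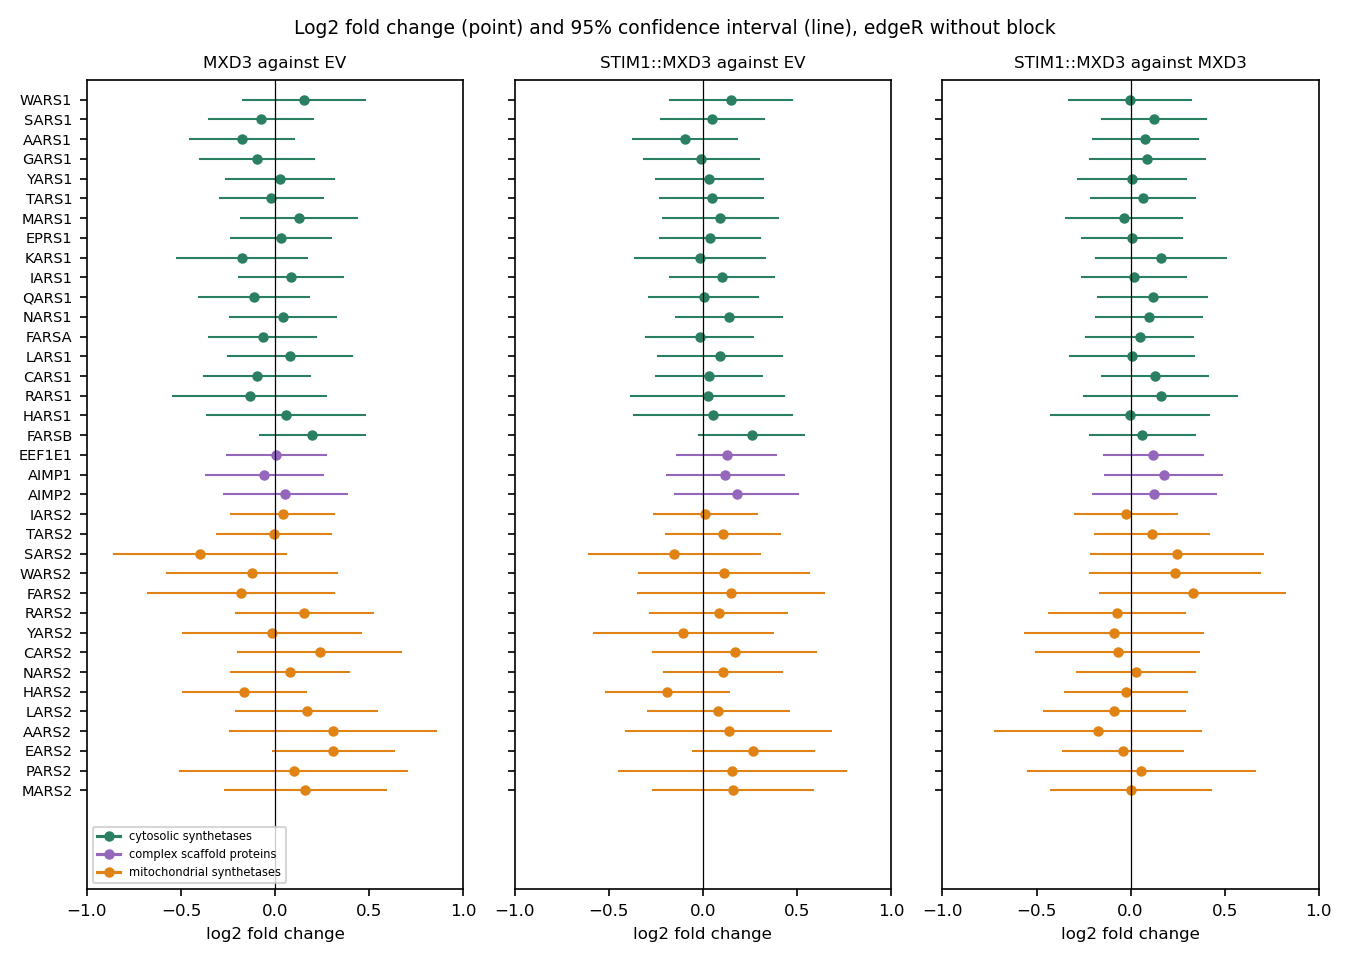
Log2 fold change (points) with 95% confidence interval (lines) from edgeR without block for 36 genes, VARS1 and VARS2 left out, in the 3 comparisons. Colours mark cytosolic, scaffold and mitochondrial genes. Every interval includes 0, and the widest belong to mitochondrial genes.

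Against EV, STIM1::MXD3 also left 0 of 37 genes called, where MXD3 was again the only gene called of 15431 (0.00648%). No member reached an unadjusted p under 0.05, against 0.953% of all genes. DESeq2 called none of the family, against 3 of all genes without the block and 29 with it. VARS1 aside, the estimates ran from -0.19 for HARS2 to 0.27 for EARS2, and 34 of the 36 genes other than VARS1 lay within 0.2 of 0. Their 95% intervals lay between -0.61 and 0.76.

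FARSB and EARS2 had the smallest p. Both were also among the 5 genes with the smallest p for MXD3, a comparison that shares the EV libraries. FARSB had 88.96 and 88.5 CPM with the fusion, above both EV libraries, a log2 fold change of 0.26 ± 0.12 (adjusted p = 1.00, edgeR). EARS2 had 27.5 and 31.6 CPM, also above both EV libraries, at 0.27 ± 0.14. Its value was 0.17 without STIM1::MXD3 replicate 2.

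HARS2 had 30.7 and 29.5 CPM in EV and 27.8 and 25.01 CPM with the fusion, a log2 fold change of -0.19 ± 0.14. AIMP2, the scaffold protein at the centre of the complex, had 25.02 and 23.8 CPM in EV and 29.1 and 26.2 CPM with the fusion, at 0.18 ± 0.14. Neither gene's groups overlapped. VARS1 met the rule for naming with 0.63 ± 0.37, at 0.800 and 0.780 CPM in EV and 1.20 and 1.24 CPM with the fusion, levels not read as expression here.

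The class medians were 0.046 for the cytosolic enzymes (15 of 19 higher, or 0.043 and 14 of 18 without VARS1), 0.109 for the mitochondrial enzymes (12 of 15) and 0.126 for the scaffold genes (3 of 3). In all, 30 of 37 genes were higher, VARS1 among them, with a median of 0.091, where 52.1% of all genes were higher with a median of 0.0096. With DESeq2 size factors 29 of 37 were higher, and with GC and length offsets 25 of 37, with a median of 0.050. The cytosolic median was 0.012 with these offsets and 0.095 without STIM1::MXD3 replicate 1. Leaving out replicate 2 of the fusion gave a mitochondrial median of 0.022, and leaving out replicate 1 of the fusion gave 0.136.

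Within the multi-synthetase complex, 9 of 10 genes were higher with the fusion, with a median of 0.093, or 7 of 10 with a median of 0.049 with GC and length offsets. KARS1, which anchors to AIMP2, was the member below 0. EEF1E1 had 108.1 and 107.2 CPM in EV and 118.9 and 116.2 CPM with the fusion. AIMP1 had 67.5 and 65.8 CPM in EV and 77.5 and 67.3 CPM with the fusion. The EEF1E1 groups stood apart. Those of AIMP1 overlapped, and its log2 fold change was 0.0089 without STIM1::MXD3 replicate 1.

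Between the constructs, again 0 of 37 genes were called, as were none of all genes tested (0%) with edgeR. No member and 1.01% of all genes had an unadjusted p under 0.05. DESeq2 called none of the family, against 1 of all genes without the block and 11 with it. The smallest adjusted p was 0.9999 (edgeR). VARS1 aside, the estimates for the fusion against MXD3 ran from -0.17 for AARS2 to 0.33 for FARS2, and 33 of 36 genes lay within 0.2 of 0. The 95% intervals of these 36 lay between -0.72 and 0.82.

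FARS2, the mitochondrial phenylalanyl-tRNA synthetase (chromosome 6, 5261277 to 5829425), had 22.9 and 18.4 CPM with MXD3 and 30.02 and 21.8 CPM with the fusion. These groups overlapped, and the log2 fold change of 0.33 ± 0.21 was 0.074 without STIM1::MXD3 replicate 1. WARS2, for tryptophan, had 39.6 and 32.7 CPM with MXD3 and 48.2 and 36.7 CPM with the fusion, at 0.23 ± 0.19, or 0.018 without that library. Both genes were lower in replicate 2 than in replicate 1 of every group. Within the pairs of equal number both were higher with the fusion, FARS2 by log2 ratios of 0.39 and 0.25 and WARS2 by 0.28 and 0.17. In the fit with a replicate block the estimates were 0.32 ± 0.12 and 0.23 ± 0.10 (adjusted p = 0.703 and 0.740, edgeR).

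SARS2 had 31.1 and 28.1 CPM with MXD3 and 36.1 and 34.1 CPM with the fusion, without overlap, at 0.25 ± 0.19. AIMP1 had 61.1 and 67.4 CPM with MXD3 and 77.5 and 67.3 CPM with the fusion, which overlapped, at 0.18 ± 0.13. VARS1, again not read as expression, had 0.57 ± 0.36.

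The cytosolic median was 0.065 (16 of 19 higher, or 0.064 and 15 of 18 without VARS1), the scaffold median 0.125 (3 of 3) and the mitochondrial median -0.024 (7 of 15 higher), where all genes had a median of 0.0083 and 52.05% were higher. The sign of the mitochondrial median was not stable. It was 0.019 with GC and length offsets, under which 9 of 15 were higher and the median of all genes was 0.034. Without MXD3 replicate 1, MXD3 replicate 2 and STIM1::MXD3 replicate 1 the mitochondrial median was 0.0035, 0.061 and 0.048. The cytosolic median was 0.111 without MXD3 replicate 2.

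Because same-numbered libraries moved together across genes, the comparisons were also made with the replicate number as a block. Again 0 of 37 genes were called in each comparison, against 0.292%, 0.0194% and 0.00648% of all genes for MXD3 against EV, the fusion against EV and the fusion against MXD3. The smallest adjusted p in the family were 0.158, 0.479 and 0.703, the first for SARS2. With MXD3 against EV, 7 of 37 genes (18.9%) had an unadjusted p under 0.05, against 13.9% of all genes. They were FARSB, AARS2, CARS2 and EARS2 on the higher side and AARS1, KARS1 and SARS2 on the lower side. For the fusion against EV there were 2 (5.41%), FARSB and EARS2, against 8.5% of all genes, and for the fusion against MXD3 there were 3 (8.11%), FARS2, SARS2 and WARS2, against 6.49%.

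**Figure D4:**
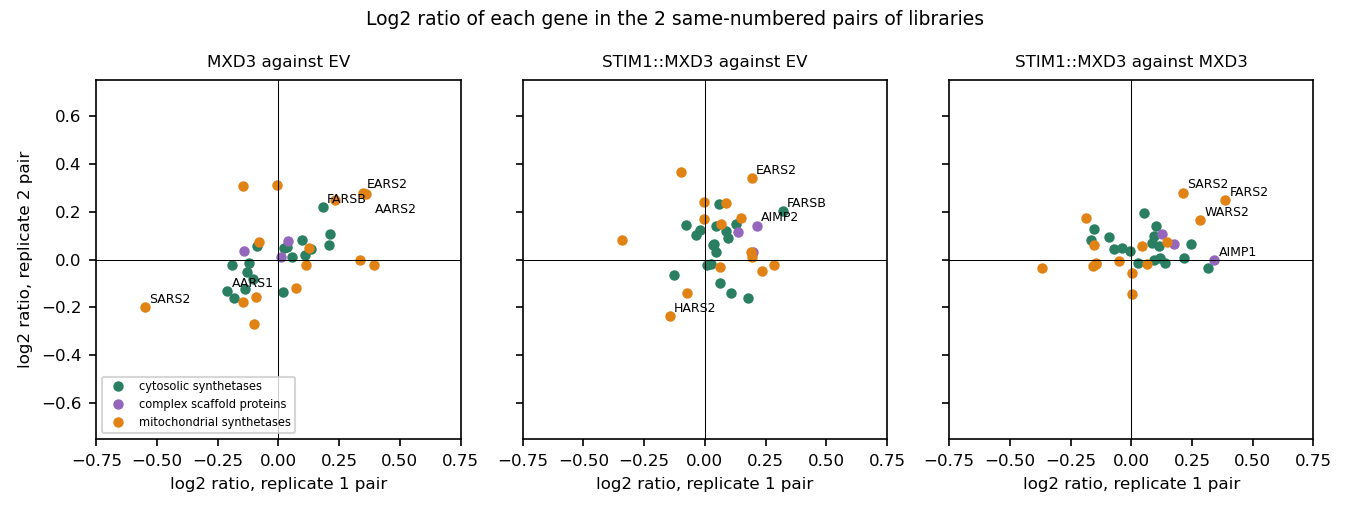
Log2 ratio of 36 genes in the replicate 1 pair (horizontal axis) and the replicate 2 pair (vertical axis) of each comparison, with the named genes labelled. EARS2, FARSB and AARS2 are above 0 and SARS2 and AARS1 below 0 in both pairs of MXD3 against EV. For the fusion against MXD3, AIMP1 departs from 0 in the replicate 1 pair alone.

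In the pairs, the EARS2 log2 ratio for MXD3 against EV was 0.35 in replicate 1 and 0.28 in replicate 2, and for the fusion it was 0.19 and 0.34. FARSB gave 0.18 and 0.22 with MXD3 and 0.32 and 0.20 with the fusion. SARS2 gave -0.55 and -0.20 with MXD3. The AIMP1 ratio of fusion to MXD3 was 0.34 in replicate 1 and -0.0022 in replicate 2.

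None of the 4 genes with an E-box was called in any comparison. Without the block, 0.00648% of all genes were called for MXD3 against EV and 0.00648% for the fusion against EV. For the fusion against MXD3 it was 0%. The log2 fold changes of these 4 genes with MXD3 were 0.31 for EARS2, 0.16 for MARS2, 0.085 for IARS1 and 0.054 for AIMP2. With the fusion they were 0.27, 0.16, 0.10 and 0.18 in the same order. Of all 37 members tested, 21 were higher with MXD3 and 30 with the fusion, with medians of 0.030 and 0.091. Whether genes with an E-box differ from the other members was not tested.

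The replicate number separated the libraries more than the plasmids did. In the fit with the block, a contrast examined after the data were seen, 9 of 37 genes (24.3%) differed between replicate 2 and replicate 1 at an adjusted p under 0.05 (edgeR). This is no more than the 29.2% of all genes that did, 13.1% higher and 16.1% lower in replicate 2. The labels do not say what the replicate number stands for beyond a repeat, so its cause was not tested.

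Of the 9, HARS1, AARS2, CARS2 and PARS2 were higher in replicate 2. HARS1 had 52.1 and 65.3 CPM in EV, 56.3 and 66.2 CPM with MXD3 and 53.6 and 68.3 CPM with the fusion, replicate 1 first. All 3 replicate 2 libraries lay above all 3 replicate 1 libraries, at a log2 difference of 0.29 ± 0.075 (adjusted p = 0.00941, edgeR). HARS2, which shares the 84 bases shown above, had a log2 difference of -0.12 ± 0.088 (adjusted p = 0.349, edgeR), and the difference between both genes was not tested. AARS2 had the largest replicate difference of the 4, at 0.40 ± 0.087 (adjusted p = 0.00281, edgeR).

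KARS1, RARS1, FARS2, WARS2 and YARS2 were lower in replicate 2. YARS2, for mitochondrial tyrosine, had 30.2 and 25.9 CPM in EV, 31.8 and 23.9 CPM with MXD3 and 28.7 and 23.5 CPM with the fusion. Its log2 difference was -0.32 ± 0.090 (adjusted p = 0.0129, edgeR), with no overlap between the replicate numbers. WARS2 differed by -0.31 ± 0.083 (adjusted p = 0.0106, edgeR) and FARS2 by -0.33 ± 0.098 (adjusted p = 0.0197, edgeR). With GC and length offsets 7 of 37 were called, 1 higher and 6 lower, against 30.9% of all genes. With 1 group left out, 8 of 37 were called without EV, 4 without MXD3 and 4 without STIM1::MXD3, against 29.5%, 22.9% and 17.2% of all genes.

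The same contrast was large for many, but not all, genes of the amino acid response, the ATF4 programme to which many cytosolic synthetases belong. Of 31 response genes outside the family, such as transporters, serine synthesis enzymes and stress factors, 20 were higher and 2 lower in replicate 2, in all 71% against 29.2% of all genes, with a median log2 difference of 0.36. CHAC1, which degrades glutathione, had the largest, at 1.53 ± 0.18 (adjusted p = 2.62e-05, edgeR; named after its value was seen). The 2 lower genes, also named after their values were seen, were SLC3A2 and XPOT. SLC3A2 had -0.45 ± 0.067 (adjusted p = 0.00019, edgeR) and XPOT -0.25 ± 0.073 (adjusted p = 0.0167, edgeR). The 13 cytosolic synthetases known as targets of this response, VARS1 among them, had a median of 0.036 with 0 called. ASNS, the asparagine synthetase used as a marker of the response and also named after its value was seen, had -0.046 ± 0.066 (adjusted p = 0.644, edgeR). The medians of the 31 genes were 0.161 in EV, 0.378 with MXD3 and 0.486 with STIM1::MXD3. Those of the 13 synthetases were 0.023, 0.012 and 0.101. The difference between both lists was not tested.

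**Figure D5:**
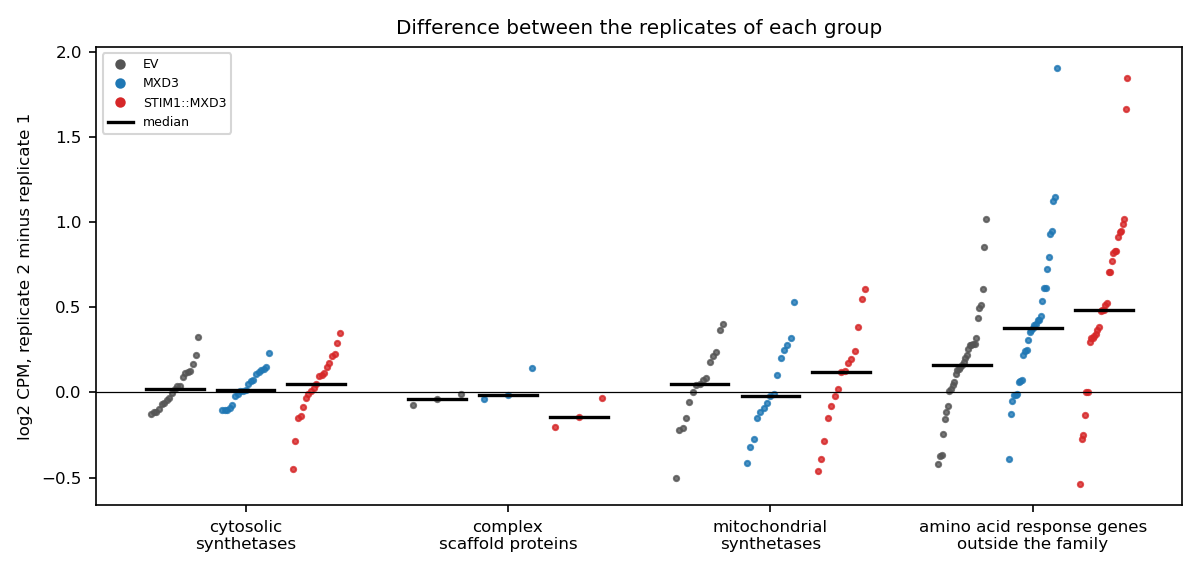
Difference in log2 CPM between replicate 2 and replicate 1 of each group for the cytosolic, scaffold and mitochondrial genes and for 31 amino acid response genes outside the family. Points are genes, colours groups and black lines medians. The synthetase classes centre near 0, while the response genes have medians of 0.161, 0.378 and 0.486 in EV, MXD3 and STIM1::MXD3.

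Between plasmids, 0 of the 31 response genes were called without the block in any comparison, against at most 0.00648% of all genes. The medians of the response genes were -0.012 for MXD3 against EV, 0.088 for STIM1::MXD3 against EV and 0.114 for the fusion against MXD3. The replicate 1 and replicate 2 pairs had medians of opposite sign against EV, -0.230 and 0.097 with MXD3 and -0.099 and 0.227 with the fusion, while for the fusion against MXD3 they were 0.055 and 0.123. With the block, 9 of the 31 (29%) had an unadjusted p under 0.05 for MXD3 against EV, where 13.9% of all genes did. NUPR1, a stress-induced chromatin factor, had the smallest p with MXD3, at -0.58 ± 0.21 (adjusted p = 0.9995, edgeR) and 0.65 ± 0.21 for the fusion against MXD3 (adjusted p = 0.9999, edgeR). With the block, SLC3A2, the heavy chain of amino acid transporters, was called in MXD3 against EV, at -0.43 ± 0.082 (adjusted p = 0.0466, edgeR). In that fit 1 of the 31 response genes (3.23%) was called, against 0.292% of all genes.

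The 21 partners of charging include elongation factors that carry charged tRNA, tRNA end-processing enzymes and the mitochondrial amidotransferase for glutaminyl-tRNA. Of these, 0 were called in any of the 3 comparisons with or without the block. For MXD3 against EV, the fusion against EV and the fusion against MXD3, 0.00648%, 0.00648% and 0% of all genes were called without the block. With the block these shares were 0.292%, 0.0194% and 0.00648%. The medians of the 21 partners were -0.036, 0.038 and 0.091 in the same order. The smallest p with MXD3 belonged to TRNT1, which adds the CCA end to tRNAs, at 0.38 ± 0.15. EEF1G, a subunit of the elongation factor exchange complex, followed at -0.29 ± 0.12.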

How the data were processed

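The deposited values were raw counts per gene, made by the authors as 1 table per library under NCBI Gene identifiers. The study describes poly A libraries, and the submitters' processing notes name HISAT2 2.2.1, featureCounts 2.0.1 and the hg19 build. The annotation and the use of strand and of multi-mapping reads are not given in the sources used here, so counts of overlapping genes and near-identical copies are uncertain. Among genes with 1 to 39 counts, 59.8% to 67.3% of counts were even, so counts were also halved as an alternative. Of 25702 identifiers, 23696 were matched to a symbol, and the unmatched ones, 0.225% to 0.277% of the counts, stayed in library sizes. Coordinates, lengths and GC content came from GENCODE v44 on GRCh37, promoters from RefSeq on GRCh38.p14.

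Groups and replicate numbers came from the labels. Genes were kept with filterByExpr (15431 genes) and scaled with TMM, and groups were compared with the two-sided quasi-likelihood test of edgeR 4.0.16 in R 4.3.3, in 1 fit over 6 libraries without covariate. P-values were adjusted by Benjamini-Hochberg over all genes tested (threshold 0.05). They measure the spread between 2 libraries per group. Alternatives were DESeq2 1.42.0, other scalings and filters, offsets for GC content and length, the replicate number as a block, and leaving out each library. The code was tested on simulated counts. After subtraction of group means, libraries with the same number correlated across genes at 0.269 to 0.450 over all genes tested and at 0.621 to 0.792 over the 10250 genes with a mean of at least 5 CPM, so the numbers were treated as pairs, from the counts and not from the labels. Named genes were the 5 with the smallest p in each comparison, any called gene, and the 2 with the smallest p in each list outside the family. The members and lists were chosen with earlier results of these data known. Lists were written from general knowledge.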

Additional observations from a re-analysis of the deposited data

How the results depend on the processing

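The number of called synthetase and scaffold genes was 0 in all 3 comparisons and stayed 0 under 42 alternatives, the replicate block among them, with edgeR and DESeq2, so the block changed no call. The 15 named fold changes kept their direction and their side of the threshold in 208 alternatives, with a lowest adjusted p of 0.0889 (DESeq2 with the block). Class medians moved more. For the cytosolic enzymes with MXD3 against EV the median was 0.024 with DESeq2 or its size factors, 0.0245 with DESeq2 and the block, 0.0316 without a filter, 0.0075 at a mean CPM of at least 5, 0.025 with counts halved, -0.0432 with GC and length offsets with or without the block, 0.0045 with VARS1 left out, chosen after seeing the data, and -0.051 to 0.028 without single libraries. For the mitochondrial enzymes it was 0.0126 to 0.135 without single libraries. With STIM1::MXD3 against EV the cytosolic median was 0.012 with GC and length offsets, 0.0136 with the block and these offsets, and 0.032 to 0.095 without single libraries. The mitochondrial median was 0.098 with DESeq2 and the block, 0.083 with the offsets, 0.085 with the block and the offsets, 0.097 in the 4 libraries alone, and 0.022 to 0.136 without single libraries. For the fusion against MXD3 the mitochondrial median was 0.019 with the offsets and 0.018 with the block and the offsets. Without single libraries it was -0.019 to 0.061, and the cytosolic one 0.042 to 0.111. Genes called between replicate numbers fell from 9 to 4 without the MXD3 group and to 4 without the STIM1::MXD3 group, and were 8 without the EV group. The cause of these shifts was not tested. With 2 libraries per group the median standard error of a gene was 0.134 on the log2 scale without the block, so small changes of single genes could not be detected. With the block the standard errors of MXD3 against EV were smaller for all tested members of the family but VARS1. For AARS2 it was 0.107 with the block against 0.231 without, and for VARS1 0.415 against 0.368.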
